A study of Saccharomyces cerevisiae with 20 samples.

Results

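Transcript levels of 10 genes of sulfate assimilation and methionine metabolism were followed in 5 strains of the budding yeast Saccharomyces cerevisiae. The genes were chosen by name, as the rows of MET3, MET14, MET16, MET5, MET10, MET2, MET6, SAM1, SAM2 and MUP1 among 7127 genes counted, and all 10 passed the filter on low counts that left 6119 genes for testing. Each strain had 4 libraries, 20 in all. BY4741 was labelled MATa with his3Delta1, leu2Delta0, met15Delta0 and ura3Delta0, where met15 is another name for the deletion of MET17. None of the other genotypes lists that deletion. CEN.PK2 was MATa with trp1-289, ura3-52, leu2-3_112 and his3Delta1, and with MAL2-8c and SUC2. D273-10B was MATAlpha mal. RM11-1a was MATa with leu2Delta0, ura3Delta0 and HO::kanMX. W303 was MATa with his3-11,15, ura3-1, can1-100, trp1-1 and leu2-3,112. All strains were grown without treatment in synthetic complete glucose medium at 30 °C to an optical density of 0.8 to 1.1. MET17 is therefore only 1 of several differences between BY4741 and each other strain, and the deletion and the rest of the strain background cannot be told apart.

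Yeast makes methionine from inorganic sulfate. Sulfate is taken up, activated with ATP, reduced to sulfite and then to sulfide, and sulfide is joined to O-acetylhomoserine by Met17 to give homocysteine. Homocysteine is methylated to methionine, and methionine is turned into S-adenosylmethionine (AdoMet), the cell's main methyl donor. A strain without Met17 cannot use sulfide in this way and needs an organic sulfur source such as methionine, which synthetic complete medium usually supplies. Most genes of the route are activated by Met4, which reaches DNA through Cbf1, Met31, Met32 and Met28, and the ubiquitin ligase subunit Met30 restrains Met4 when sulfur amino acids are plentiful.

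The sequences before these genes carry the short motifs that such factors bind. CACGTG is the core bound by Cbf1, TGTGGC and AAACTGTG are a core and a longer form linked to Met31 and Met32, and TGACTC is a core of Gcn4, the general amino acid control activator. The stretches below are shown for 5 of the genes, among them MET3 and MET10, on which the strain comparisons turn, and for MET17. Each is the strand of the gene, 5′ to 3′, centred on the CACGTG nearest to the annotated start, in the RefSeq R64 genome, and capitals mark matches to the 4 motifs on either strand.

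MET3 (chrX:455834-455929, plus strand): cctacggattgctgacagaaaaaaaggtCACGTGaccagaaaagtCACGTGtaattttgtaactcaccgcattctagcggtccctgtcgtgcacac

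MET16 (chrXVI:877760-877855, minus strand): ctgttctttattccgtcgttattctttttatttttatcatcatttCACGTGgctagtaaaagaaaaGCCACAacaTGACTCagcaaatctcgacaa

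MET5 (chrX:683539-683634, minus strand): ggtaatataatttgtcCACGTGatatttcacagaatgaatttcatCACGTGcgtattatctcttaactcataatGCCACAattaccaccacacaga

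MET10 (chrVI:213036-213131, plus strand): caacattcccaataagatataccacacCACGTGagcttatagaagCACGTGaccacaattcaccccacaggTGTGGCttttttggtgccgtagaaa

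SAM2 (chrIV:1454737-1454832, minus strand): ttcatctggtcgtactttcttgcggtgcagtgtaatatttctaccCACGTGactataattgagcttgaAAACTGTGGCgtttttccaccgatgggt

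MET17 (chrXII:732197-732292, plus strand): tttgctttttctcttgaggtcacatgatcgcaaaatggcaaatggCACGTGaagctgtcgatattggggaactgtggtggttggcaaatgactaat

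MET3, MET5 and MET10 each held 2 CACGTG matches in the 500 bases before the start, which for MET10 lay 249 and 231 bases before it. In that window CACGTG was found before 8 of the 10 genes, all but SAM1 and MUP1, against 6.23% of 6000 promoters of protein-coding genes. TGTGGC was found before 8 genes, all but MET6 and SAM1, against 14.2% of promoters. AAACTGTG was found before 5 genes against 2.7%, and TGACTC before 4 genes against 12.7%. AAACTGTG and TGTGGC can share bases, as they do before SAM2. Both CACGTG and TGTGGC stood before 7 genes, against 1.15% of promoters. This window and the motif TGTGGC were chosen after a first search had been seen. The first search covered 250 bases before to 50 bases after the start and gave CACGTG for 3 genes against 2.92% of 6001 promoters, AAACTGTG for 0 genes against 1.58%, and TGACTC for 3 genes against 7.98%. In that shorter window TGTGGC was found for 3 genes against 7.82%. A match is a description of the letters and not a shown binding site.

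**Figure D1:**
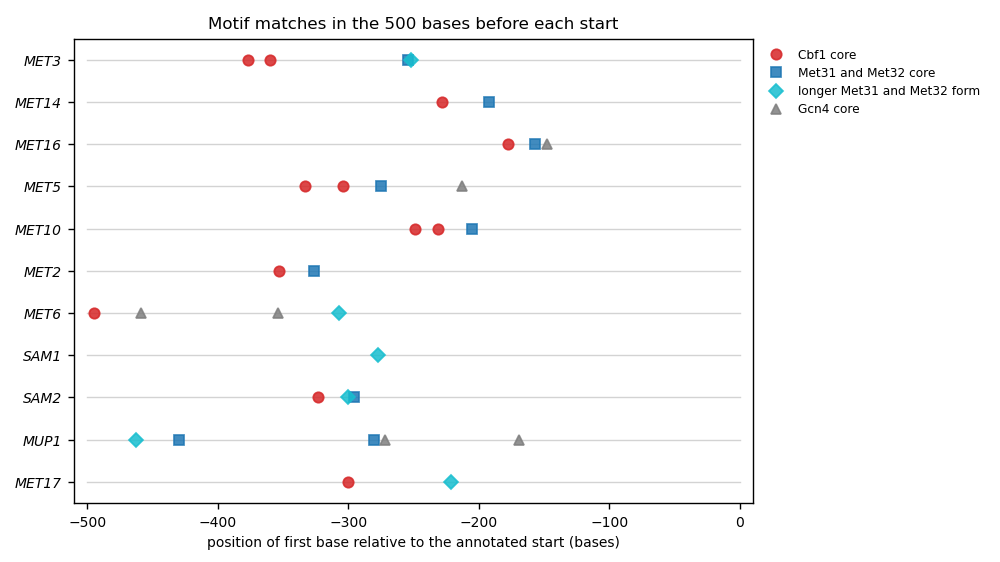
Positions of the 4 motifs, named by the factor each is linked to, in the 500 bases before the annotated start of the 10 genes and MET17. Each symbol is the first base of a match on either strand, and the horizontal axis is in bases from the start. CACGTG, the Cbf1 core, appears before 8 of the 10 genes, and SAM1 has a single match, to AAACTGTG.

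Total counts per library ran from 1311322 to 22979469 over the series and from 2507091 to 12098393 in BY4741. The labels do not say that the 4 libraries of a strain came from separate cultures, so p-values measure the spread between libraries, which may be technical. Library names begin with 66, 69 or 74, and these number series were crossed only in part with strain: BY4741 had 2 libraries of series 69 (replicates 1 and 2) and 2 of series 66 (replicates 3 and 4). The library labelled RM11-1a replicate 2 had 60.9 CPM of HO, the gene labelled as replaced in that strain, while the other 3 RM11-1a libraries had 0.0926 to 0.327 CPM (CPM is the share of a library's total count, on the usual fixed scale). LEU2 had 0 counts in all 8 libraries of BY4741 and RM11-1a. URA3, labelled as deleted in the same 2 strains, had 2 to 29 counts in BY4741 and 102, 75, 11 and 9 counts in RM11-1a replicates 1 to 4, which is 0.337 to 3.16 CPM in BY4741 and 16.7, 11.2, 1.02 and 1.05 CPM in RM11-1a. Without RM11-1a replicate 1, MET6 in RM11-1a against W303 was at -1.63 (adjusted p = 0.0646, edgeR) and MET3 in D273-10B against RM11-1a at -1.37 (adjusted p = 0.0751, edgeR). CEN.PK2 replicate 4, the only CEN.PK2 library of series 74, was the lowest of all 20 libraries for 6 of the 10 genes.

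MET17 (YLR303W, chromosome XII, bases 732542 to 733876, plus strand, overlapping YLR302C) checks the label. BY4741 had 1, 0, 3 and 2 counts of it in replicates 1 to 4. The other 16 libraries had 432 to 13563 counts, or 37.4 to 787 CPM. Every BY4741 library was thus at or under a floor of 3 counts per library. Against the highest of those floors MET17 was at least 327-fold lower in BY4741 than the CEN.PK2 mean, 127-fold lower than the D273-10B mean, 213-fold lower than the RM11-1a mean and 509-fold lower than the W303 mean. Its level also varied among the strains that carry it, with 391 ± 283 CPM in CEN.PK2, 152 ± 131 in D273-10B, 255 ± 139 in RM11-1a and 609 ± 128 in W303 (SD, n = 4 each).

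The 10 genes spanned a wide range of levels. Per kilobase of coding length, and averaged over 20 libraries, SAM1 stood at 1017 CPM per kb, SAM2 at 481, MET6 at 130.2, MET14 at 113, MUP1 at 68.1, MET16 at 41.4, MET3 at 11.0, MET2 at 6.59, MET10 at 2.38 and MET5 at 2.17. The place of MET6 above MET14 was not shared by all strains. MET14 and MET6 averaged 167 and 140.1 CPM per kb in BY4741, 90.2 and 83.6 among CEN.PK2 libraries, 87.3 and 98.5 for D273-10B, 127 and 79.2 for RM11-1a, and 91.7 and 249.6 for W303. The AdoMet synthetases were the most abundant and the sulfite reductase subunits the least. Low levels mean few counts: MET10 had 3 to 259 counts per library and MET5 had 17 to 254.

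**Figure D2:**
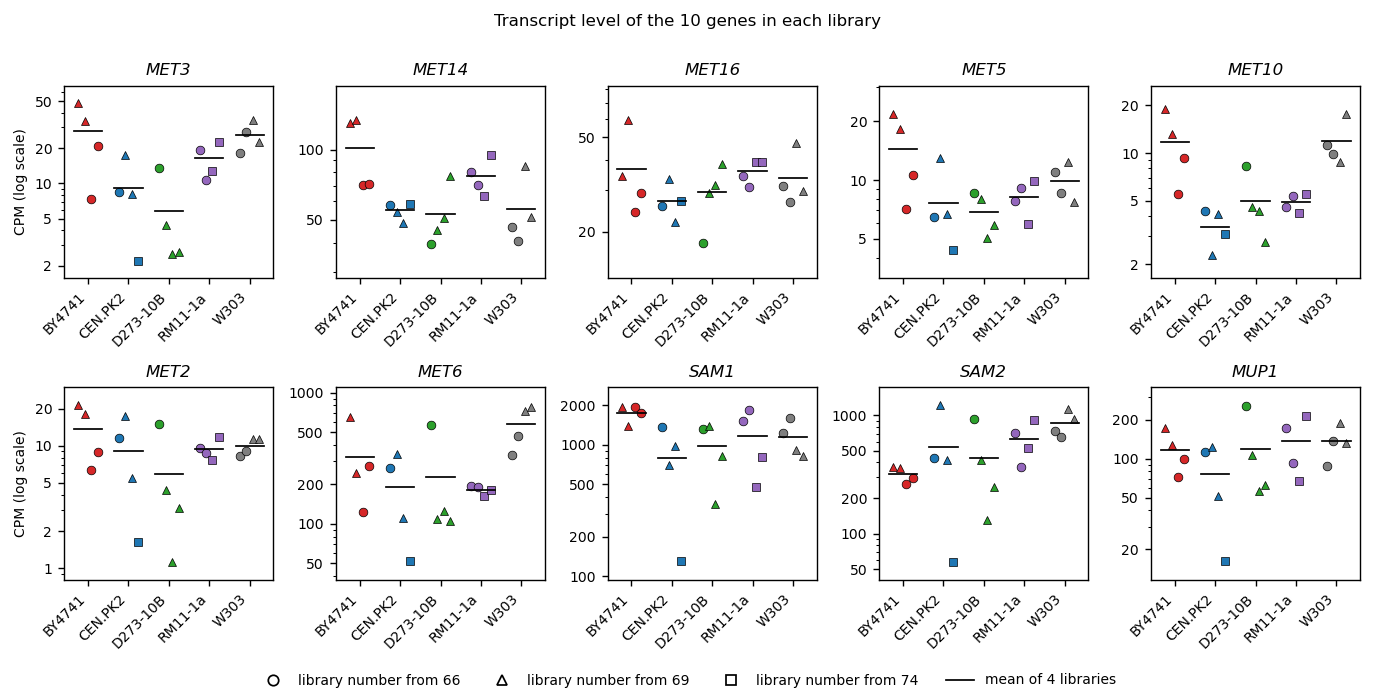
Level of each of the 10 genes in each library, in CPM on a log scale, with BY4741 at the left. Symbols give the first digits of the library number and the bar is the mean of 4 libraries. MET3 ran from 7.40 to 48.5 CPM within BY4741, and CEN.PK2 replicate 4 was lowest for SAM1, SAM2, MUP1 and MET6.

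The test for any difference among the 5 strains, an F test of the strain terms in edgeR's quasi-likelihood fit with Benjamini-Hochberg adjustment over all genes tested, called 2 of the 10 genes at an adjusted p under 0.05. They were MET3 (adjusted p = 0.0114, edgeR) and MET10 (adjusted p = 0.00557, edgeR). Over all genes the same test called 28.4%, so the share among these 10 was not above the background. MET6 came next, with an adjusted p of 0.0604 in edgeR, and MET16 last, with 0.971.

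The contrast of BY4741 with the mean of the other 4 strains, which addresses the MET17 deletion as far as strain allows, called 0 of the 10 genes by edgeR, against 4.84% of all genes. At an unadjusted p under 0.05 there were 5, against 20.5% of all genes, and DESeq2 called 2, MET3 and MET10, against 9.01%. Of the 10 fold changes 8 were positive, with a median of 0.64 on the log2 scale, while over all genes 46.7% were positive and the median was -0.040. With a correction for coding length 5 were called, MET3, MET14, MET5 and MET10 higher and SAM2 lower in BY4741, against 9.17% of all genes in that fit. None of the 10 genes had its 4 BY4741 libraries all above or all below the other 16, which happened for 0.261% and 0.703% of genes. The 3 genes nearest to the threshold were MET10, MET3 and MET5. The rest of the section takes the genes in the order of the pathway.

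MET3 encodes ATP sulfurylase, which activates sulfate, and lies on chromosome X (YJR010W, bases 456239 to 457774, plus strand). BY4741 replicates 1 to 4 had 48.5, 33.9, 7.40 and 21.0 CPM. CEN.PK2 had 8.42, 17.5, 8.09 and 2.20 CPM, D273-10B had 13.6, 4.46, 2.51 and 2.60, RM11-1a had 19.3, 10.6, 12.7 and 22.7, and W303 had 18.2, 27.1, 34.4 and 22.6. The 2 highest BY4741 libraries were the 2 of series 69, and BY4741 replicate 3 lay below 12 of the 16 other libraries. Against the mean of the other strains the log2 fold change was 1.13 (SE 0.36, adjusted p = 0.0751, edgeR), which did not pass. MET3 exceeded its D273-10B level in BY4741 by 2.14 (SE 0.50, adjusted p = 0.00827, edgeR), where 14.5% of all genes were called. The difference from W303 was 0.12, with a 95% interval from -0.88 to 1.12. That call against D273-10B was lost without the 2 BY4741 libraries of series 69, at 1.29 (adjusted p = 0.135, edgeR). With only the libraries of the 2 strains fitted the difference was 2.10 (adjusted p = 0.0586, edgeR). Within series 66, where D273-10B had only replicate 1, it was 0.34. The call held within series 69, at 3.21 (adjusted p = 0.000414, edgeR), and without the series-66 BY4741 libraries, at 2.75 (adjusted p = 0.00319, edgeR). It also held with the library number as a block, at 2.09 (adjusted p = 0.0119, edgeR). Leaving out 1 library at a time lost it in 0 of 20 fits.

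MET14 encodes the kinase of the next step, acting on adenylylsulfate, and MET16 the reductase that yields sulfite. MET14 (YKL001C) had 130.0, 134, 70.9 and 71.4 CPM in BY4741, against 39.5 to 95.1 CPM in the other 16 libraries, with a log2 fold change of 0.61 against the mean of the strains (SE 0.26, adjusted p = 0.186, edgeR). Both BY4741 libraries of series 69 were above every library of the other strains, and both of series 66 were within their range. The share of all genes for which the BY4741 libraries of series 69 lie above the other 16 was not counted. MET16 (YPR167C) had 34.4, 59.0, 24.2 and 29.1 CPM in BY4741, against 17.9 to 47.3 CPM in the others, a log2 fold change of 0.078 with a 95% interval from -0.48 to 0.63.

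Sulfite reductase, which makes sulfide, has its beta subunit encoded by MET5 and its alpha subunit by MET10. MET10 (YFR030W, chromosome VI, bases 213312 to 216419, plus strand) had 19.0, 13.2, 5.55 and 9.26 CPM in BY4741. CEN.PK2 libraries had 2.29 to 4.31 CPM and D273-10B libraries 2.77 to 8.28. RM11-1a libraries had 4.17 to 5.49 CPM and W303 libraries 8.74 to 17.6. The W303 range lay within that of BY4741, and every BY4741 library lay above every CEN.PK2 and RM11-1a library. The margin to RM11-1a was small, with 5.55 CPM (33 counts) in BY4741 replicate 3 and 5.49 CPM (47 counts) in RM11-1a replicate 4. The share of all genes separated in this way in these pairs was not counted. MET10 was higher in BY4741 than in CEN.PK2 by 1.31 (SE 0.35, adjusted p = 0.0286, edgeR) and than in RM11-1a by 1.21 (SE 0.34, adjusted p = 0.0435, edgeR), where 6.65% and 5.47% of all genes were called. Against W303 it was at -0.055, with a 95% interval from -0.76 to 0.65. The same gene was lower in CEN.PK2, D273-10B and RM11-1a than in W303, by 1.37, 1.06 and 1.26 on the log2 scale, with adjusted p of 0.0368, 0.0484 and 0.0216 in edgeR, where 2.63%, 10.6% and 10.9% of all genes were called. The calls in BY4741 were sensitive to single libraries: that against CEN.PK2 was lost in 4 of 20 fits that left out 1 library (without BY4741 replicate 1 or 2, or CEN.PK2 replicate 1 or 4), and that against RM11-1a in 11 of 20 (without BY4741 replicate 1, 2 or 4, RM11-1a replicate 1, 3 or 4, CEN.PK2 replicate 1 or 3, D273-10B replicate 2, or W303 replicate 1 or 2). Both were also lost within series 66, without the 2 BY4741 libraries of series 69 and with only the 2 strains fitted (adjusted p = 0.0543 and 0.0835, edgeR), and that against CEN.PK2 within series 69 too. With the library number as a block, neither passed (adjusted p = 0.0541 against CEN.PK2 and 0.246 against RM11-1a, edgeR), and nor did the 3 lower levels relative to W303 (adjusted p = 0.0599 for CEN.PK2, 0.0518 for D273-10B and 0.105 for RM11-1a, edgeR). Without a filter, with the replicate block and with the length correction, the call against RM11-1a was lost as well. Against the mean of the other strains MET10 passed in 5 of 20 fits that left out 1 library, and MET3 and MET5 in 3 each. For MET10 these include the fit without the library labelled RM11-1a replicate 2, at 0.89 (adjusted p = 0.0427, edgeR). The share of all genes called in that fit is not given here.

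MET5 (YJR137C) had 21.8, 18.3, 7.07 and 10.7 CPM in BY4741, against 4.40 to 13.0 CPM in the other 16 libraries. Its log2 fold change against their mean was 0.72 (SE 0.23, adjusted p = 0.0751, edgeR). The 2 libraries of series 69 again stood above all others, and the 2 of series 66 did not. For this separation, too, the share of all genes was not counted.

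MET2 encodes homoserine O-acetyltransferase, which makes the acceptor for sulfide, and had 21.4, 18.3, 6.40 and 8.93 CPM in BY4741 against 1.13 to 17.5 CPM elsewhere. Its log2 fold change was 0.66 (SE 0.40, adjusted p = 0.368, edgeR). MET6, methionine synthase, had 647, 243, 123 and 278 CPM in BY4741 against 52.7 to 781 elsewhere, with a log2 fold change of 0.24 (SE 0.39, adjusted p = 0.758, edgeR). MET6 was lower in RM11-1a than in W303 by 1.63 (SE 0.51, adjusted p = 0.0444, edgeR), a call lost in 9 of 20 fits that left out 1 library. The difference was -1.66 when the library labelled RM11-1a replicate 2 was left out (adjusted p = 0.0613, edgeR), and -1.15 with a block for the library number (adjusted p = 0.316, edgeR). MUP1, the high-affinity methionine permease, had 172, 128, 72.4 and 99.1 CPM in BY4741 and 16.3 to 255 elsewhere, a log2 fold change of -0.017 with a 95% interval from -0.77 to 0.73.

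SAM1 and SAM2 encode the 2 AdoMet synthetases, and no stretch of 75 bases of either gene is repeated elsewhere in the R64 genome. SAM1 (YLR180W) had 1959.9, 1405, 1938 and 1763 CPM in BY4741, against 131 to 1856 CPM in the other 16 libraries, a log2 fold change of 0.71 (SE 0.38, adjusted p = 0.301, edgeR). SAM2 (YDR502C) had 363, 357, 261 and 296 CPM in BY4741, against 57.1 to 1230.1 CPM, a log2 fold change of -0.93 (SE 0.43, adjusted p = 0.226, edgeR). Neither passed the test. The level of SAM1 divided by that of SAM2, per kilobase, was looked at after these values had been seen and has no test. It was 3.96 to 7.47 in the 4 BY4741 libraries (median 5.70) and 0.576 to 5.08 in the other 16 (median 2.24). The value of 5.08 belongs to the library labelled RM11-1a replicate 2, and without it the highest of the other 15 was 3.38, below every BY4741 library. The share of gene pairs whose ratio separates in this way was not counted. In both BY4741 library series the ratio stood above 3.9, with 3.96 and 5.42 in series 69 and 5.98 and 7.47 in series 66.

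**Figure D3:**
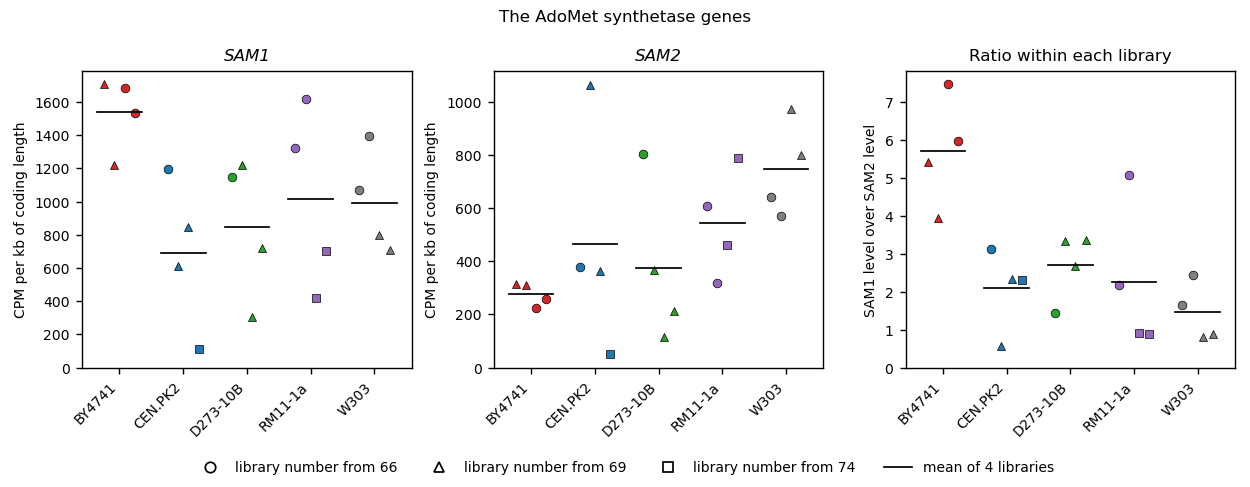
SAM1 and SAM2 in CPM per kilobase of coding length, and SAM1 over SAM2 in each library, with BY4741 at the left. Bars are means of 4 libraries. The 4 BY4741 ratios run from 3.96 to 7.47, and the single ratio above 3.38 in another strain is the library labelled RM11-1a replicate 2, at 5.08.

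The difference between BY4741 and the others depended on which BY4741 libraries were used. In BY4741 both libraries of series 69 exceeded both of series 66 for 8 of 10 genes, all but MET6 and SAM1, while 29.6% of all genes were higher and 27.5% lower in the same sense. This split was examined after the values had been seen. Within the 9 libraries of series 69, which hold no RM11-1a library, 9 of 10 genes were higher in BY4741, against 46.6% of all genes. The median log2 fold change was 0.84, against -0.054 over all genes. MET3 passed at 1.78 (adjusted p = 0.00631, edgeR), where 3.53% of genes were called. Within the 8 libraries of series 66, 6 of 10 were higher, against 49.2% of all genes, and the median was 0.079, against -0.014 over all genes. CEN.PK2 and D273-10B each had only replicate 1 in that series, so only effect sizes are given here. With the series-66 libraries of BY4741 left out and all others kept, 3 genes were called against the mean of the other strains (MET3, MET5 and MET10), where 0.721% of all genes were called, and the median was 0.83. With the series-69 libraries left out the count was 0, where 0.413% of all genes were called, and the median was 0.014. Both of these fits were added after the data were seen. SAM2 was lower in BY4741 in both number series, at -1.13 in series 66 and -0.93 in series 69, and passed in neither. What distinguishes the number series was not given in the labels, and its part in these differences was not tested.

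**Figure D4:**
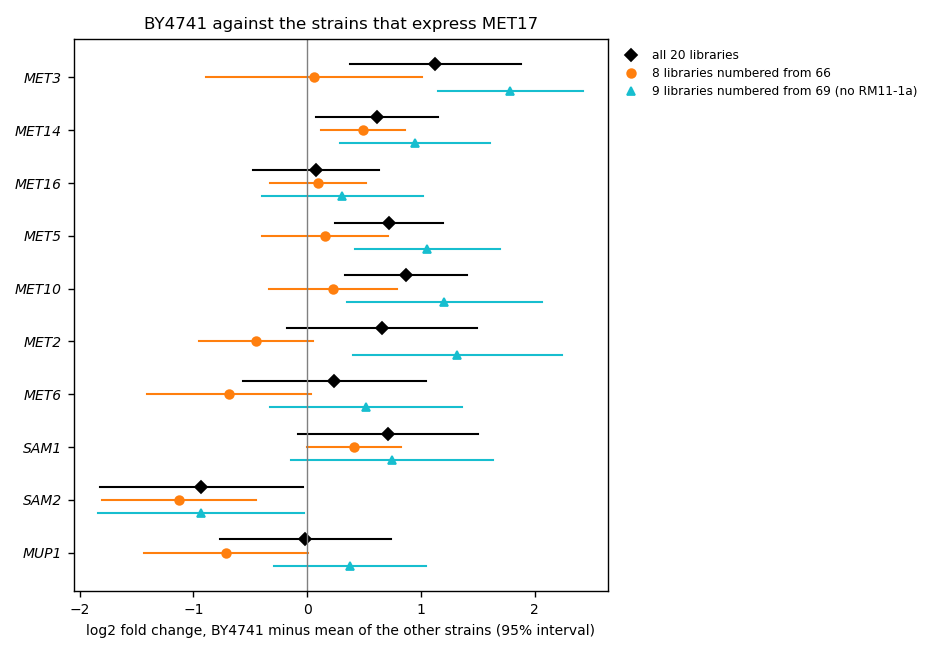
Log2 fold change of each gene, BY4741 minus the mean of the other strains, with 95% intervals, over all 20 libraries (black), the 8 of series 66 (orange) and the 9 of series 69 (cyan, no RM11-1a). MET3 lies at 1.78 in series 69 and at 0.062 in series 66, and SAM2 lies below 0 in all 3 fits.

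**Figure D5:**
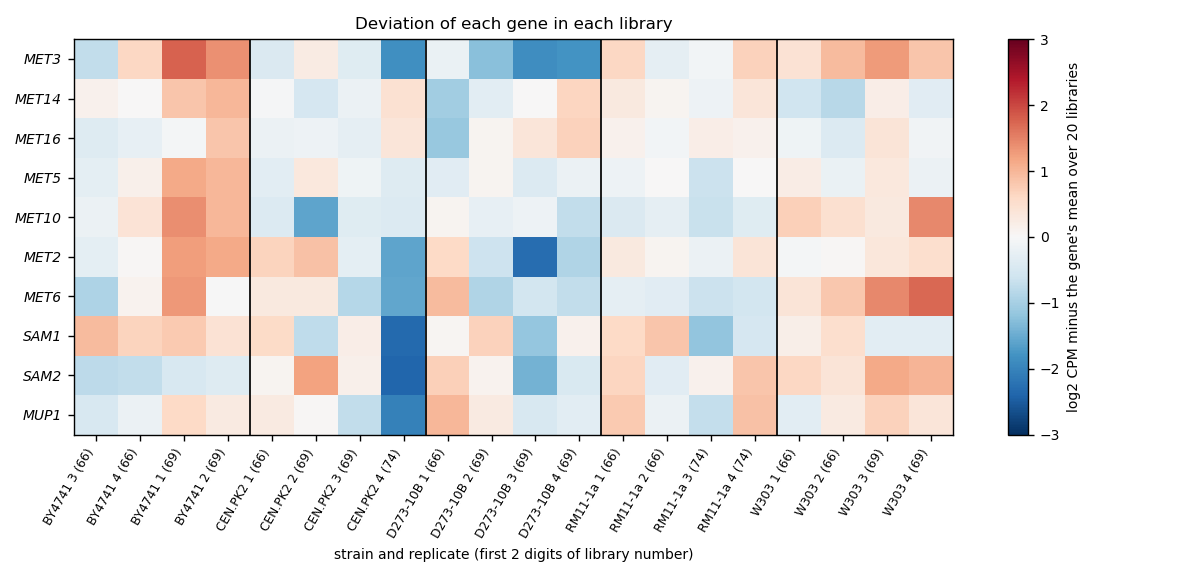
Deviation of log2 CPM of each gene from its mean over 20 libraries, with columns grouped by strain and the number series in brackets. MET3 deviates by 1.77 in BY4741 replicate 1 and by -0.73 in BY4741 replicate 3.

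Among the pairs without BY4741, 6 of 60 tests passed, against 9.18% of all tests over the same pairs. Beside MET10 and MET6 above, MET3 was lower in D273-10B than in RM11-1a by 1.42 (adjusted p = 0.0499, edgeR), where 18.4% of all genes were called, and than in W303 by 2.03 (adjusted p = 0.0155, edgeR). These calls of MET3, MET6 and MET10 lie among strains that express MET17, and their share is near that over all tests. With the library number as a block 1 of the 60 passed. It was MET3 in D273-10B against W303, at -2.03 (adjusted p = 0.0199, edgeR). In the 20 fits that left out 1 library, the 6 calls were lost 1 to 15 times each, least often for MET3 in D273-10B against W303 and most often for MET10 in that pair. Of the 10 genes, edgeR called 0 in CEN.PK2 against D273-10B or against RM11-1a, where 5.61% and 6.93% of all genes were called. At an unadjusted p under 0.05 there were 0 in both pairs, and DESeq2 called 0. In BY4741 against W303 edgeR called 0, where 2.11% of all genes were called. That pair had 2 at an unadjusted p under 0.05 and 0 by DESeq2. The shares of all genes at an unadjusted p and by DESeq2 in these pairs were not counted.

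The other genes of sulfur amino acid metabolism were a list of 37, of which 36 could be tested. MET28, which encodes a cofactor of Met4, was not tested, with 35 counts in all. Against the mean of the other strains 1 of the 36 was called, where 4.84% of all genes were called. It was SUL2, a sulfate permease, which was lower in BY4741 by 0.97 (SE 0.26, adjusted p = 0.0359, edgeR). SUL2 had 7.38, 5.58, 4.71 and 4.96 CPM in BY4741, against 10.2 to 32.8 CPM in CEN.PK2 and 8.15 to 17.7 CPM in D273-10B. RM11-1a libraries had 7.32 to 16.1 CPM of it and W303 libraries 3.66 to 5.22. BY4741 thus overlapped W303 and RM11-1a, and the call against the mean was lost in 6 of 20 fits that left out 1 library (any of the 4 BY4741 libraries, RM11-1a replicate 4 or W303 replicate 1), within either series, and with a block for the library number. SUL2 was also lower in BY4741 than in CEN.PK2 by 1.70, than in D273-10B by 1.41 and than in RM11-1a by 1.17 on the log2 scale (adjusted p = 0.00203, 0.00514 and 0.0270 in edgeR). Of the SUL2 calls, that against RM11-1a was lost in 6 of 20 fits that left out 1 library and with the library number as a block. CBF1 was higher in BY4741 than in CEN.PK2 by 0.95 (adjusted p = 0.0226, edgeR) and than in RM11-1a by 1.05 (adjusted p = 0.0142, edgeR), and stood at 0.10 against D273-10B and 0.00058 against W303. Its call against CEN.PK2 was lost in 4 of 20 fits that left out 1 library and with the length correction, and its call against RM11-1a in 1 of 20 and with the library number as a block. Against single strains, 2 of the 36 were called for CEN.PK2, 3 for D273-10B, 2 for RM11-1a and 2 for W303. Over all genes the shares called in these contrasts were 6.65%, 14.5%, 5.47% and 2.11%. Beside SUL2 and CBF1 the pathway genes called were YCT1 and CYS3 against D273-10B, and MET13 and IRC7 against W303. These 4 are named after their values were seen. YCT1, a cysteine transporter, was lower in BY4741 than in D273-10B by 1.84 (adjusted p = 0.00831, edgeR), with 2.79 to 5.79 CPM in BY4741 and 4.07 to 27.3 CPM in D273-10B, and without D273-10B replicate 2 the difference was -0.99 (adjusted p = 0.0557, edgeR). CYS3, cystathionine gamma-lyase, exceeded its D273-10B level in BY4741, with a 95% interval of the log2 fold change from 0.55 to 2.45 (adjusted p = 0.0323, edgeR) and 848 to 1223 CPM in BY4741 and 64.8 to 829 CPM in D273-10B, a call lost in 5 of 20 fits that left out 1 library. MET13, a methylenetetrahydrofolate reductase, had 1.85 to 11.6 CPM in BY4741 and 17.5 to 101 CPM in W303, lower in BY4741 by 3.13 (adjusted p = 0.0106, edgeR). IRC7, a cysteine desulfhydrase, had 9.59 to 15.6 CPM in BY4741 and 51.3 to 94.0 CPM in W303, lower in BY4741 by 2.25 (adjusted p = 0.00451, edgeR). For CYS3, MET13 and IRC7 the libraries of the 2 strains did not overlap, and the share of all genes for which this holds was not counted. With only the 2 strains fitted, the calls of SUL2 against RM11-1a, of CBF1 in both pairs, of YCT1 and of CYS3 were lost. Within series 69, SUL2 did not pass against CEN.PK2 or D273-10B (adjusted p = 0.164 and 0.0721, edgeR). Nor did CBF1 against CEN.PK2 or IRC7 against W303 (adjusted p = 0.281 and 0.0871, edgeR). Within series 66, SUL2 against CEN.PK2 was at -1.47, CBF1 against CEN.PK2 at 0.68 and against RM11-1a at 0.89. YCT1 was then at -1.02, CYS3 at 0.82 and MET13 at -2.37. All calls of SUL2, CBF1, YCT1, CYS3, MET13 and IRC7 in BY4741 given here were lost when the 2 BY4741 libraries of series 66 were left out. With the 2 of series 69 left out instead, most were lost as well. These were SUL2 against the mean and against RM11-1a, CBF1 in both pairs, YCT1, CYS3 and MET13. SUL2 against the mean was at -0.78 without series 66 of BY4741 and at -1.11 without series 69. MET13 against W303 was at -2.69 and -3.57 in the same fits. MET4, MET31, MET32 and MET30 were called in none of the 5 contrasts of BY4741 by edgeR. Of these 4, MET32 against CEN.PK2 was at -0.77 (adjusted p = 0.0620, edgeR).

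The 10 genes did not move as a block across libraries. Over the 20 libraries the correlation of pairs ran from -0.45 (MET14 with SAM2) to 0.83 (MET3 with MET2), and MET14 and MET16 were at 0.75. All points share library depth and strain, so these values describe the libraries and are not tests. The genes outside both lists whose profile was nearest to the mean of MET3, MET14, MET16, MET5 and MET10 were AQY3, OPT1, YPR027C, USV1 and SPL2, with Pearson correlations of 0.79, 0.78, 0.78, 0.75 and 0.74. For the mean of all 10 they were OLE1, YPQ2, IMD3, AUR1 and TNA1, at 0.89, 0.89, 0.88, 0.88 and 0.88.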

How the data were processed

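Per the labels' protocols, Smart-seq2 libraries were read as 75-base single-end reads. The authors deposited 1 table of counts, whole numbers per gene and library without normalization. STAR and Salmon are named in the submitters' processing notes, with no version or role, and strand use and the genome build are not given in the sources used here. Of 7127 genes 6047 matched RefSeq R64 by systematic name. All 20 columns were used, and for 2 RM11-1a columns whose numbering differs the sample title was followed. edgeR 4.0.16 (R 4.3.3) fitted a quasi-likelihood model of strain to 20 libraries after filterByExpr and TMM scaling (factors 0.665 to 1.26), with 15 residual degrees of freedom and Benjamini-Hochberg adjustment over 6119 genes at 0.05, and was tested on simulated data. DESeq2 1.42.0 was an alternative. CPM uses raw library totals, and the floor is 3 counts per library, for counting error only. The members and lists were chosen with earlier results of these data known. The named genes are the 10 members, MET17, pathway genes called against the mean of the other strains, Met4 regulators (CBF1 among them) and the 5 most similar genes per score. YCT1, CYS3, MET13 and IRC7, the window of 500 bases, the motif TGTGGC, the SAM1 to SAM2 ratio, the split by library series within BY4741, the count of lowest libraries and the 2 fits without a BY4741 series were chosen after the data were seen.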

Additional observations from a re-analysis of the deposited data

Results flagged for a closer look

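The groups of 4 libraries examined numbered 59, each a gene or the SAM1 to SAM2 ratio in 1 strain. By Dixon's test 1 held a library far from the other 3. It was MET6 in D273-10B, where replicate 1 had 567 CPM. The gap to its nearest neighbour was 0.958 of the group's range, above the critical value for 4 libraries. About 1 in 20 groups is flagged by chance. No reason was tested.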

How the results depend on the processing

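Depth limits MET10 most, with 3 to 259 counts per library. Counts below are of genes called, for BY4741 against the mean of the other strains or each of them unless stated, and fold changes are on the log2 scale, listed where the sign turned. The cause was not tested in any case. The share of all genes called also moved between fits. Against the mean it was 4.84% in the main fit and 9.17% with the length correction. Without series 66 of BY4741 it was 0.721%, and without series 69 it was 0.413%. For most fits and contrasts below that share is not given, so these counts describe the processing and are not results about the 10 genes. MET3, MET14, MET5, MET10, SAM1 and SAM2 kept their direction against the mean of the other strains in every fit run, except that MET5 and MET10 had no value under the filter at a mean of 10 CPM. That filter removed MET5, MET10 and MET2 before testing, and series 69 holds no RM11-1a library, so contrasts with RM11-1a and the total over the 6 pairs without BY4741 have no value there. Same-numbered libraries of different strains had correlations of -0.36 to 0.38 over 40 pairs (median -0.022, 13 over 0.1), so the replicate numbers do not pair the samples, and the replicate block moved the count of calls by over 1.5 times only against RM11-1a. The 2 fits that leave out a BY4741 series, and the median, were added after the data were seen. With DESeq2 size factors the count was 2 against D273-10B, and the sign turned for MET16 at -0.027 against RM11-1a. With no filter the count was 0 against RM11-1a, and the sign turned for MET16 at -0.0069 against RM11-1a. With a filter at a mean of 10 CPM the count was 0 against CEN.PK2 and against RM11-1a, 1 among the 5 strains and 2 over the 6 pairs without BY4741. With the replicate block the count was 0 against RM11-1a, and the sign turned for MET16 at 0.032 against D273-10B and MET3 at -0.064 against W303. With the library number as a block the count was 0 against CEN.PK2, against RM11-1a and among the other pathway genes, 1 over the 6 pairs without BY4741 and 2 against D273-10B, and the sign turned for MET16 at 0.15 against D273-10B and MET16 at -0.074 and SAM1 at -0.073 against RM11-1a. In series 66 alone the count was 0 among the 5 strains, against CEN.PK2, against RM11-1a and among the other pathway genes and 2 against D273-10B and over the 6 pairs without BY4741, and the sign turned for MET2 at -0.45 and MET6 at -0.69 against the mean, MET16 at -0.12, MET2 at -0.76, MET6 at -0.60 and MUP1 at -0.58 against CEN.PK2, MET16 at 0.86, MET2 at -0.69 and MET6 at -1.24 against D273-10B, MET3 at -0.10, MET14 at -0.11, MET16 at -0.32 and MET2 at -0.27 against RM11-1a and MET3 at -0.57, MET16 at -0.033, MET5 at -0.055 and MET2 at -0.075 against W303. The median fold change of the members was then 0.079. In series 69 alone the count was 0 against CEN.PK2 and among the other pathway genes, 1 against the mean and 5 among the 5 strains and against D273-10B, and the sign turned for MUP1 at 0.38 against the mean, MET16 at 0.0098 and MUP1 at 0.54 against D273-10B and MET10 at 0.15 against W303. With the length correction the count was 0 against RM11-1a, 1 against W303, 2 among the other pathway genes, 3 against CEN.PK2, 4 among the 5 strains and against D273-10B and 5 against the mean, and the sign turned for MET10 at 0.21 and MUP1 at 0.018 against W303. With the series-66 BY4741 libraries left out the count was 0 among the other pathway genes, 2 against RM11-1a and 3 against the mean, against CEN.PK2 and against D273-10B, and the sign turned for MUP1 at 0.32 against the mean, MET16 at 0.31 and MUP1 at 0.22 against D273-10B, MUP1 at 0.064 against RM11-1a and MET10 at 0.42 and MUP1 at 0.16 against W303. With the series-69 BY4741 libraries left out the count was 0 against CEN.PK2, against D273-10B, against RM11-1a and among the other pathway genes, and the sign turned for MET16 at -0.33, MET2 at -0.079 and MET6 at -0.38 against the mean, MET16 at -0.23, MET2 at -0.19 and MET6 at -0.0054 against CEN.PK2, MET6 at -0.17 against D273-10B, MET3 at -0.20, MET14 at -0.098, MET16 at -0.41 and MET2 at -0.28 against RM11-1a and MET3 at -0.75, MET16 at -0.23, MET5 at -0.052 and MET2 at -0.27 against W303. The median fold change of the members was then 0.014. With only the 2 strains compared the count was 0 against CEN.PK2, against D273-10B and against RM11-1a and 1 against W303, and the sign turned for MET16 at -0.036 against RM11-1a. With the DESeq2 test the count was 2 against the mean, against CEN.PK2, against D273-10B and among the other pathway genes, and the sign turned for MET16 at -0.030 against RM11-1a. Leaving out 1 library at a time gave counts of 0 to 3 against the mean, 0 to 2 against CEN.PK2, 1 to 3 against D273-10B, 0 to 1 against RM11-1a, 1 to 8 over the 6 pairs without BY4741 and 0 to 3 among the other pathway genes. In those fits the fold change against the mean ran for MET16 from -0.26 to 0.22, MET6 from -0.30 to 0.50 and MUP1 from -0.22 to 0.14. Against CEN.PK2 it ran for MET16 from -0.18 to 0.33. Against D273-10B it ran for MET16 from -0.36 to 0.22, MET6 from -0.11 to 1.04 and MUP1 from -0.33 to 0.25. Against RM11-1a it ran for MET16 from -0.32 to 0.16 and MUP1 from -0.46 to 0.0075. Against W303 it ran for MET3 from -0.26 to 0.43, MET16 from -0.18 to 0.34 and MET10 from -0.35 to 0.24.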
